A study of Mus musculus with 4 samples.

Results

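The 37 genes described here encode the transcriptional response to low oxygen and the enzymes of glycolysis. They were taken as a fixed list of symbols and found by symbol in the gene table of each of 4 single-cell RNA libraries from mouse cancers. All 37 were among the 30406 genes that the libraries share. The symbol Aldoa carries 2 gene identifiers, so 38 gene rows were used and those of Aldoa were added. The list holds 22 hypoxia response genes (Bnip3, Bnip3l, Hilpda, Ndrg1, Slc2a1, Slc2a3, Adm, Ankrd37, Egln1, Egln3, Pfkfb3, Pfkfb4, P4ha1, P4ha2, Higd1a, Ddit4, Car9, Car12, Pdk1, Mxi1, Bhlhe40 and Kdm3a). The other 15 are genes of the glycolytic path (Hk1, Hk2, Gpi1, Pfkl, Pfkp, Aldoa, Aldoc, Tpi1, Gapdh, Pgk1, Pgam1, Eno1, Pkm, Ldha and the lactate exporter Slc16a3).

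When oxygen is plentiful, prolyl hydroxylases of the Egln family mark the alpha subunits of the hypoxia-inducible factors (HIF) for destruction through the Vhl protein. When oxygen falls, the alpha subunits persist, pair with Arnt and bind short DNA motifs, the hypoxia response elements, near target genes. Those targets raise glucose uptake and glycolysis, divert pyruvate to lactate, remove mitochondria, and modify collagen and extracellular pH. Glycolytic genes are also driven by growth signals and by activation of immune cells, so their level is not a readout of oxygen alone.

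Of the libraries, 3 came from omental tumors, grown from line KPCA.A, line KPCA.B or line KPCA.C, and the other from KPCA ascites, the fluid that collects in the abdomen, all in C57BL6J mice. The tumor libraries each pooled 4 tumors of mice aged 8 weeks, and the ascites mice were 9 weeks old. The labels give fallopian tube epithelium as the cell of origin and 5000 cells per library. They do not spell out the KPCA alleles, what sets the lines apart or which line gave the ascites. With 1 library per group no difference has a replicate check and no test was possible. The intervals given are at 95% and reflect counting error alone, and the pool of 4 tumors hides the spread between animals.

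After filtering, 2648 cells of KPCA.A, 2586 of KPCA.B, 3098 of KPCA.C and 2921 of the ascites library were used, with median depths of 7881, 7926.5, 14571.5 and 2075 UMIs (captured transcripts counted by a molecular barcode). Of all barcodes, 53.1% of KPCA.A, 22.5% of KPCA.B, 24.3% of KPCA.C and 5.42% of ascites lay over the limit of 15% mitochondrial UMIs. The tumor libraries shared 2 to 16 barcodes pairwise and none with ascites. Cells were clustered without the members, and classes are called by their likeness to marker genes. Tumor epithelial-like cells held Krt8 at 2400, 1033 and 1384 CPM (UMIs of a gene per 1000000 UMIs of the class) in KPCA.A, KPCA.B and KPCA.C, and Cdkn2a at 596, 638 and 472 CPM. Of genes known from the fallopian tube, Pax8 stood at 44.2, 61.8 and 17.4 CPM in the same order, while Ovgp1 and Wt1 were near 0, at no more than 1.76 CPM. Epcam was low in KPCA.C, at 8.73 CPM against 254 and 380 CPM in KPCA.A and KPCA.B. Only 14 ascites cells were tumor epithelial-like, so ascites is described by its macrophage-like and dendritic cell-like cells. In summed counts, fewer UMIs per cell and fewer expressing cells cannot be told apart.

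Promoter stretches are shown for 5 members, chosen by hand, that bear repeated letters of the hypoxia response element core. Hk1 and Pfkp, with 4 matches each in their promoters, are not shown. Whether matches bear on the differences between tumors was not tested. The letters searched were ACGTG and GCGTG on either strand, with overlapping matches counted as 1. Capitals mark each match as it reads on the printed strand, so CACGT and CACGC are matches on the other strand. Each stretch lies upstream of the RefSeq start in build GRCm38.p6, overlaps no annotated exon and is printed 5′ to 3′ on the gene's own strand. Bnip3 lies at chr7:138909529-138909628 (minus strand), P4ha2 at chr11:54100812-54100911 (plus), Adm at chr7:110627557-110627656 (plus), Pgk1 at chrX:106186945-106187044 (plus) and Ldha at chr7:46845704-46845803 (plus).
Bnip3: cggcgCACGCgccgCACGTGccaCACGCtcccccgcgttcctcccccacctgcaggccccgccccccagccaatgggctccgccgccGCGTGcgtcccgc
P4ha2: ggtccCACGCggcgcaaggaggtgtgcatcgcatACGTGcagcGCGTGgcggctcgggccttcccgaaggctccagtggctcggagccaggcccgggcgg
Adm: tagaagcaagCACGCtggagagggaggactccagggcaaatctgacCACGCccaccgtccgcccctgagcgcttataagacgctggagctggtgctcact
Pgk1: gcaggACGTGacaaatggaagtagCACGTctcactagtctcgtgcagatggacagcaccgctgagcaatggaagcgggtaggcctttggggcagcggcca
Ldha: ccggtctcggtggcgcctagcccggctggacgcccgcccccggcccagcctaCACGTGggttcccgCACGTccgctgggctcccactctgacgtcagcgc

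Bnip3 carries 4 matches in its 100 bases, P4ha2 carries 3, and Adm, Pgk1 and Ldha carry 2 each. RefSeq gave 48 promoter windows of 300 bases (250 before to 50 after a start) for 33 members and none for Bhlhe40, Bnip3l, Ndrg1 and Slc2a3. At least 1 match lay in 79.2% of the members' windows and in 43.8% of all 32851 windows, and at least 2 matches in 54.2% and 17.3%. The members' windows were also richer in G and C, with a median of 63.8% against 52.7%, and the part of base composition in this difference was not tested. By gene, 30 of 33 members had a match, and Car12, Gpi1 and Tpi1 had none in these windows. A match is a run of letters and not a site shown to be bound. CACGTG, the palindrome that other factors also bind and that holds ACGTG, lay in 6.25% of the members' windows and 7.15% of all windows.

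The members' share of all UMIs was 1.25% for KPCA.A and 1.37% for KPCA.C, against 0.577% for KPCA.B and 0.480% for ascites. Ranked by the mean log2 level of the 22 hypoxia genes (log2 of CPM plus 5), fibroblast-like cells led KPCA.A at 6.83, followed by neutrophil-like at 6.73, tumor epithelial-like at 6.54 and macrophage-like cells at 6.09. KPCA.C had nearly the same order, with fibroblast-like cells at 6.75, tumor epithelial-like at 6.5 and macrophage-like cells at 6.41. In KPCA.B, neutrophil-like cells led at 5.97 and tumor epithelial-like and macrophage-like cells followed at 5.40 and 5.20, while fibroblast-like cells came 4th at 4.91. Plasma cell-like cells, antibody factories with little of either program, stood at 3.77 in KPCA.A and 3.53 in KPCA.B. B and plasma cell markers took 487348 and 397645 CPM of these cells, which lowers the CPM of every other gene. Summed levels, which weigh abundant genes more, gave another order of classes, with neutrophil-like cells first in KPCA.A. By this measure fibroblast-like cells held 3759, 905 and 3304 CPM in KPCA.A, KPCA.B and KPCA.C, and T cell-like cells 1779, 889 and 1856 CPM.

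Glycolysis genes ranked the classes differently. Macrophage-like cells were first in each tumor, at mean log2 levels of 8.62, 8.35 and 8.95 in KPCA.A, KPCA.B and KPCA.C. Tumor epithelial-like cells were 2nd, at 8.61, 8.08 and 8.63, nearly level in KPCA.A. Fibroblast-like cells were 4th in KPCA.A at 8.56, 6th in KPCA.B at 7.03 and 4th in KPCA.C at 8.39. The order of the leading classes depended on the measure. With each cell thinned to the same number of UMIs, tumor epithelial-like cells held more glycolysis UMIs than macrophage-like cells. The means per cell were 10.6, 6.69 and 12.3 against 8.96, 6.45 and 11.3 in KPCA.A, KPCA.B and KPCA.C. Across classes within a tumor the mean levels of both lists went together, with Pearson's r of 0.93 over 10 classes in KPCA.A, 0.90 over 11 in KPCA.B and 0.91 over 9 in KPCA.C. These points share a library and its depth, and the values are descriptions.

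**Figure D1:**
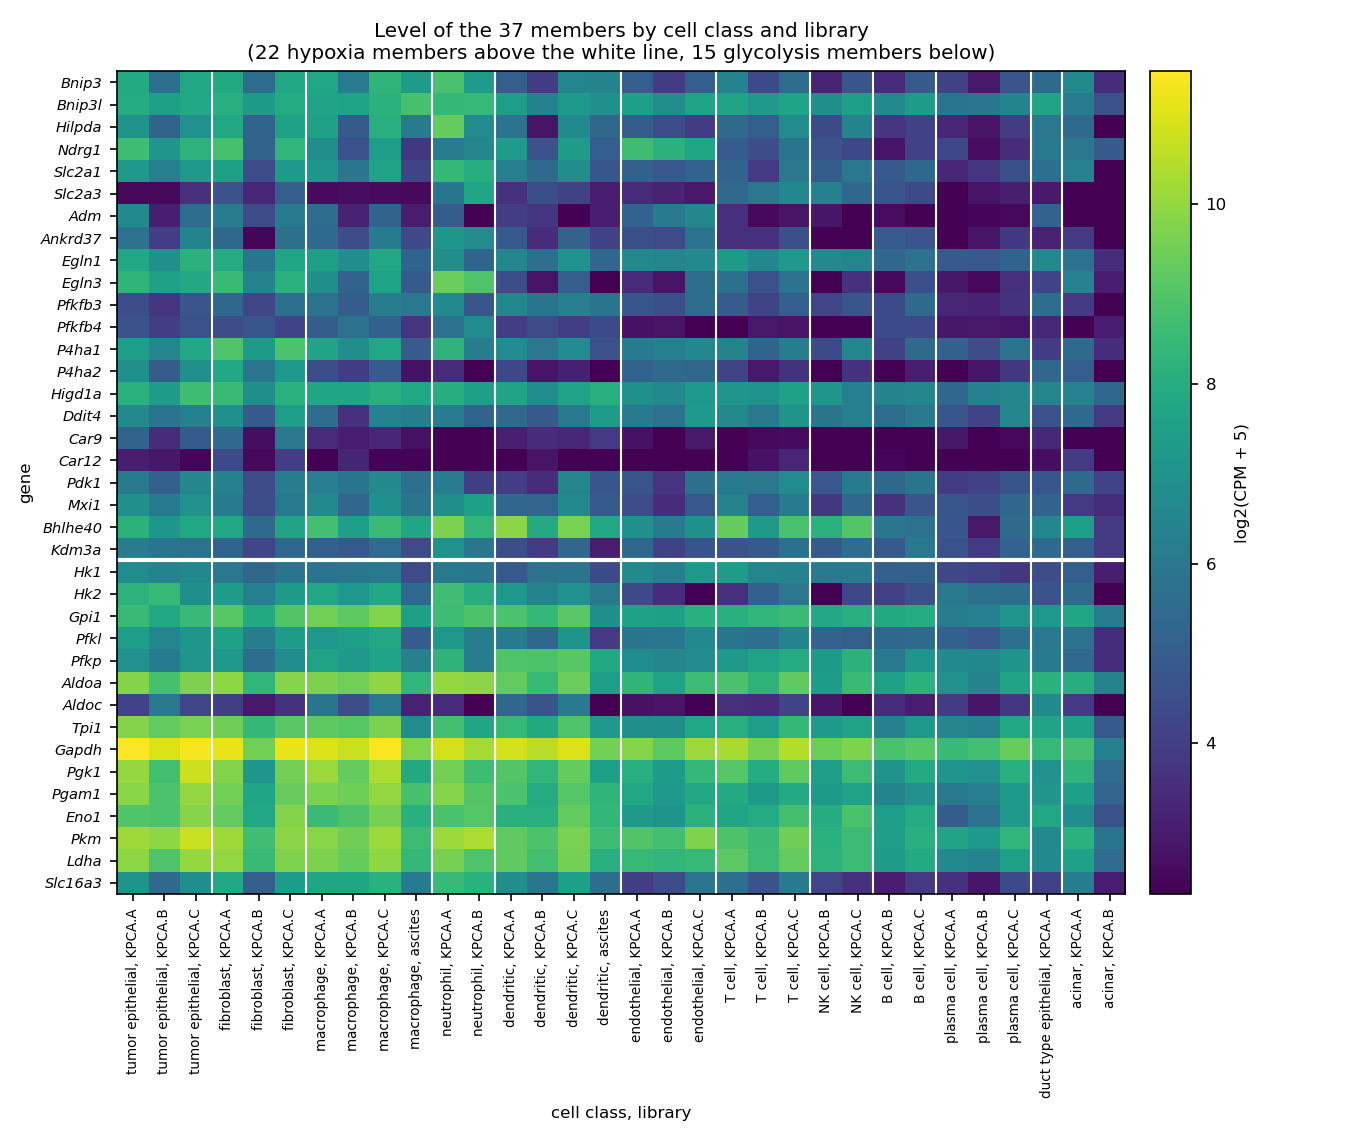
Level of each of the 37 genes, as log2 of CPM plus 5 (color), in every class and library (columns), with a white line between the 22 hypoxia genes above and the 15 glycolysis genes below. Darker color marks a lower level. The KPCA.B columns of fibroblast-like, tumor epithelial-like and macrophage-like cells are mostly darker over the hypoxia rows than those of KPCA.A and KPCA.C. The plasma cell-like columns are dark over most hypoxia rows.

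In KPCA.B tumor epithelial-like cells most hypoxia genes were lower than in both other lines. The median log2 ratio of the hypoxia genes was -0.93 against KPCA.A and -1.11 against KPCA.C, beside 0.04 and 0.09 over all genes measured (at least 50 UMIs in the libraries compared together). Against KPCA.A, 21 of 21 measured hypoxia genes were lower, 8 of them by at least 2-fold, and against KPCA.C 20 of 22 were lower and 13 by 2-fold. Of all genes measured, 2.66% were 2-fold lower in the first comparison and 4.69% in the second. These comparisons share the KPCA.B library. The exceptions were Slc2a3, below the count limit against KPCA.A, and Car12 and Kdm3a, which were lowest in KPCA.C.

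Adm showed the largest difference. It encodes adrenomedullin, a peptide that widens vessels, and stood at 97.5 CPM in KPCA.A (94.0 to 101) and 42.4 CPM in KPCA.C (40.7 to 44.1), but at 3.51 CPM (2.51 to 4.78, from 40 UMIs) in KPCA.B. KPCA.B was thus 27.7-fold lower than KPCA.A (20.3 to 38.9) and 12.1-fold lower than KPCA.C (8.83 to 16.9). The gene spans chr7:110627661-110629820 on the plus strand. KPCA.A and KPCA.C also differed from each other, with Adm 2.30-fold lower in KPCA.C (2.18 to 2.43).

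The mitophagy receptor Bnip3 (chr7:138890836-138909519, minus strand) stood at 240, 46.3 and 219 CPM in KPCA.A, KPCA.B and KPCA.C, 5.19-fold (4.75 to 5.68) and 4.73-fold (4.33 to 5.17) lower in KPCA.B. Its close relative Bnip3l stood at 249, 178 and 217 CPM. Bnip3 thus made up 49.1% of the UMIs of the pair in KPCA.A (48.3 to 49.9%) and 50.2% of those in KPCA.C (49.6 to 50.8%), but 20.7% (19.1 to 22.3%) in KPCA.B. Such a share does not depend on how libraries are scaled, and it sets KPCA.B apart from both other lines.

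P4ha2, which encodes a catalytic subunit of the collagen prolyl hydroxylases, stood at 115, 27.4 and 116 CPM in KPCA.A, KPCA.B and KPCA.C. KPCA.B was 4.21-fold (3.75 to 4.74) and 4.24-fold (3.79 to 4.77) lower. The paralog P4ha1 was at 171, 85.6 and 212 CPM, so P4ha2 made up 40.2%, 24.3% and 35.4% of the pair. The ankyrin repeat gene Ankrd37 stood at 48.2, 10.8 and 81.7 CPM, Hilpda, whose product keeps fat in lipid droplets, at 128, 34.1 and 119 CPM, and Car9, a carbonic anhydrase of the cell surface, at 33.4, 6.24 and 25.2 CPM. KPCA.B lay 3.48 to 7.56-fold below the other lines for these 3 genes. KPCA.A and KPCA.C stood close for Hilpda, whereas Ankrd37 was highest in KPCA.C.

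The remaining hypoxia genes differed less. Ndrg1, a stress-response gene, was the most abundant of them in KPCA.A, at 391 CPM against 131 in KPCA.B and 300 in KPCA.C. The glucose transporter Slc2a1 stood at 146, 72.5 and 147 CPM, Egln1 at 215, 115 and 289 CPM and Pdk1, the kinase that keeps pyruvate out of mitochondria, at 61.8, 30.0 and 88.4 CPM. KPCA.B was lowest for each. Egln3 stood at 315, 184 and 224 CPM and Bhlhe40, a transcriptional repressor, at 287, 136 and 214 CPM. Kdm3a, a histone demethylase, was at 67.9, 51.1 and 47.8 CPM, and Car12 at 3.09, 2.46 and 0.490 CPM, which leaves KPCA.B between the other lines or level with one of them. Slc2a3 was scarce, at 0.709, 0.791 and 6.73 CPM, and 9.50-fold higher in KPCA.C than KPCA.A (6.18 to 15.3).

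Glycolysis genes were also mostly lower in KPCA.B tumor epithelial-like cells, by a median log2 ratio of -0.75 against KPCA.A and -0.80 against KPCA.C. In each comparison 13 of 15 were lower, and 2 and 5 were 2-fold lower. Pgk1, the first enzyme of the path to make ATP, stood at 1039, 416 and 1772 CPM in KPCA.A, KPCA.B and KPCA.C, and was 2.50-fold (2.43 to 2.58) and 4.26-fold (4.14 to 4.39) lower in KPCA.B. Slc16a3, which carries lactate out of the cell, stood at 130, 39.9 and 109 CPM. The smallest differences were those of Eno1 (506, 467 and 905 CPM) and Pkm (1149, 966 and 1686 CPM) against KPCA.A. Gapdh, often taken as a constant reference, was at 2854, 2027 and 2645 CPM.

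Aldoc, an aldolase isozyme known from brain, and Hk2, the inducible hexokinase, went the other way. Aldoc (chr11:78322968-78327781, plus strand) stood at 13.0, 59.0 and 14.2 CPM and was 4.55-fold (4.01 to 5.16) higher in KPCA.B than KPCA.A and 4.15-fold (3.74 to 4.6) higher than KPCA.C. Of all measured genes 3.1% and 6.63% were 2-fold higher in these comparisons. Aldoc made up 1.48%, 11.7% and 1.70% of the aldolase UMIs of Aldoa and Aldoc. Hk2 stood at 299, 346 and 113 CPM, so it was KPCA.C that lay apart, 2.64-fold below KPCA.A (2.56 to 2.73). Between KPCA.C and KPCA.A the lists showed no common shift, with median log2 ratios of -0.09 for hypoxia and 0.02 for glycolysis genes. Adm and Hk2 were 2-fold lower in KPCA.C and Slc2a3 2-fold higher, where 3.34% of measured genes were 2-fold lower and 2.28% higher.

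**Figure D2:**
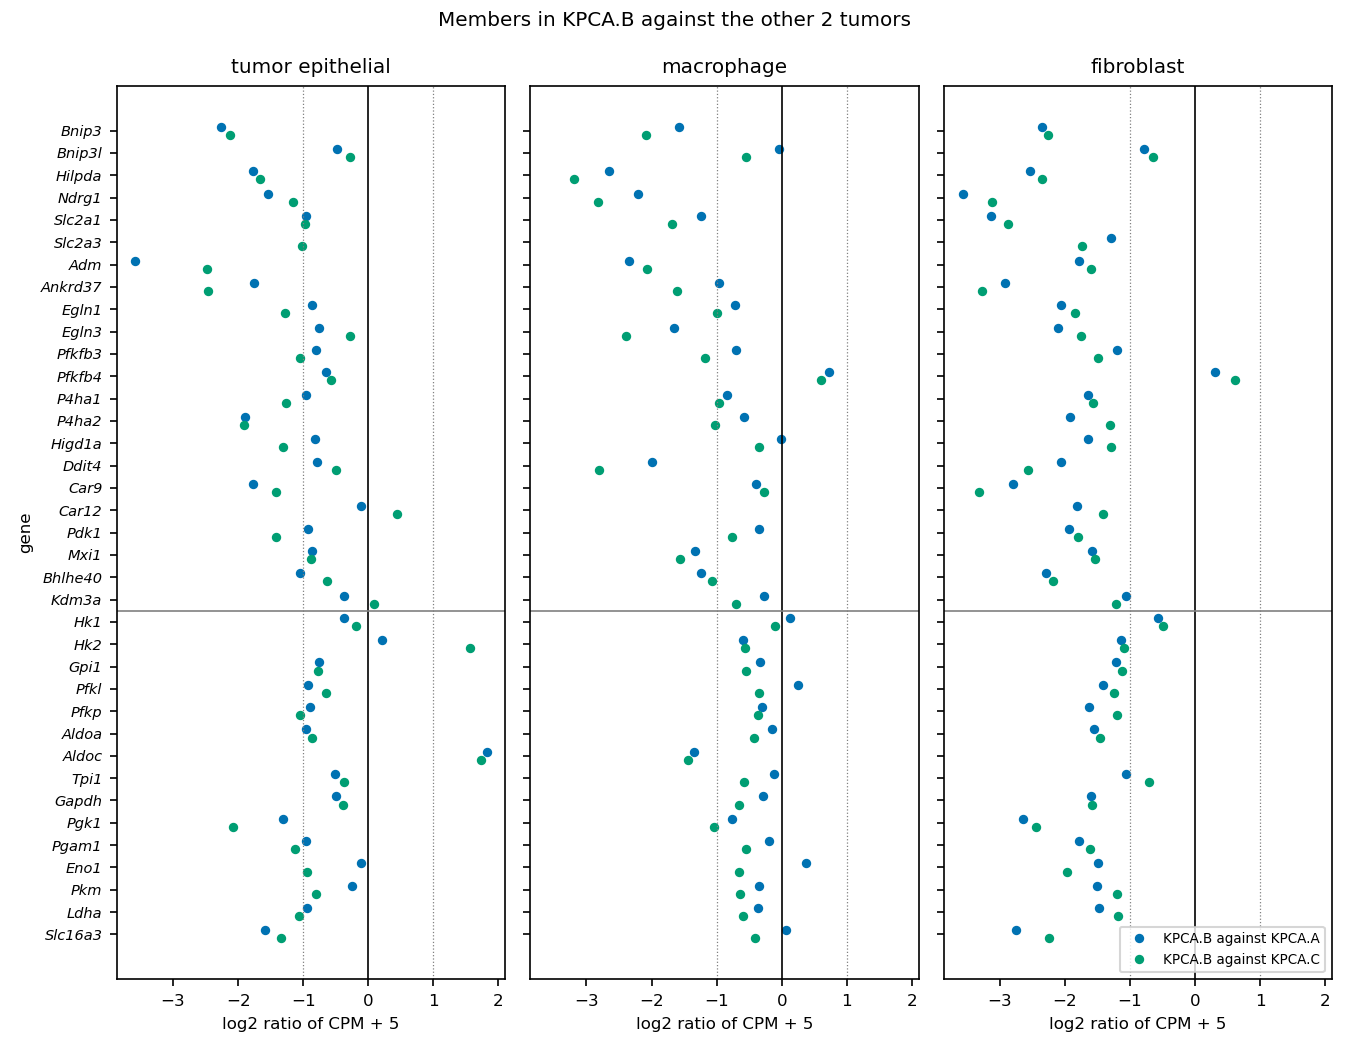
Log2 ratio of CPM plus 5 of KPCA.B against KPCA.A (blue) and against KPCA.C (green) for each gene in fibroblast-like, macrophage-like and tumor epithelial-like cells, with dotted lines at 2-fold. Most points lie left of 0, Aldoc lies right of the dotted line in tumor epithelial-like cells only, and nearly all fibroblast-like points lie beyond the left dotted line.

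Macrophage-like cells, the largest class in common to all 4 libraries, showed the same direction for hypoxia genes in KPCA.B, with different leading genes. The median log2 ratio was -0.90 against KPCA.A (19 of 20 lower, 9 by 2-fold) and -1.12 against KPCA.C (19 of 20 lower, 12 by 2-fold), beside 0.03 and 0.07 over all genes. Of all measured genes 3.09% and 3.18% were 2-fold lower. Pfkfb4 was the exception in both comparisons. Ndrg1 and Slc2a1 were low in KPCA.B here as well, at 20.03 CPM against 110 and 172, and at 55.1 CPM against 137 and 188.

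Hilpda, which in macrophages favors storage of fat, stood at 185, 25.1 and 269 CPM in KPCA.A, KPCA.B and KPCA.C, 7.37-fold (6.39 to 8.53) and 10.7-fold (9.38 to 12.3) lower in KPCA.B. Ddit4, an inhibitor of mTOR signaling, was at 42.8, 7.04 and 79.0 CPM, and Adm at 42.5, 4.33 and 34.1 CPM. Egln3 stood at 114, 32.8 and 193 CPM, Bnip3 at 217, 69.5 and 313 CPM and Mxi1, an antagonist of MYC, at 98.0, 36.1 and 116 CPM. For these 5 genes KPCA.A and KPCA.C both lay above KPCA.B by more than 2-fold, and the genes were picked for such a difference. By contrast Bnip3l (199, 193 and 284 CPM) and the mitochondrial gene Higd1a (208, 207 and 265 CPM) were level between KPCA.A and KPCA.B. Pfkfb4, which sets an activator of phosphofructokinase, stood at 27.7, 48.8 and 30.5 CPM and was 1.76-fold (1.47 to 2.12) and 1.60-fold (1.40 to 1.83) higher in KPCA.B.

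The glycolysis genes of macrophage-like cells differed less than the hypoxia genes. Their median log2 ratio was -0.29 against KPCA.A, with 11 of 15 lower and 1 of them by 2-fold, and -0.57 against KPCA.C, with 15 of 15 lower and 2 by 2-fold. Aldoc stood at 53.8, 18.2 and 57.9 CPM and was 2.96-fold (2.45 to 3.59) and 3.18-fold (2.69 to 3.78) lower in KPCA.B, opposite to its direction in tumor epithelial-like cells. Pgk1 was at 1084, 635 and 1314 CPM, whereas Pfkl (143, 170 and 219 CPM) and Slc16a3 (203, 212 and 284 CPM) were at least as high in KPCA.B as in KPCA.A. KPCA.C lay above KPCA.A for 17 of 20 hypoxia and 14 of 15 glycolysis genes, with medians of 0.44 and 0.28. Eno1, at 767 against 373 CPM, was the single member 2-fold higher, beside 0.957% of measured genes.

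Libraries differed in more than these genes. Macrophage-like cells came mainly from cluster 0 in KPCA.A (418 cells) and KPCA.C (693 cells) and from cluster 16 in KPCA.B (233 cells). Within cluster 0 the hypoxia median was -0.64 against KPCA.A and -0.86 against KPCA.C, and the glycolysis median was 0.07 and -0.13. Within cluster 7 (178 KPCA.B cells) the hypoxia median was -0.75 and -1.37, and the glycolysis median was -0.28 and -0.77. Within cluster 17 (100 KPCA.B cells) the medians against KPCA.C were -0.85 for hypoxia and -0.49 for glycolysis. In cluster 16 KPCA.B and KPCA.A did not differ in this way, and its 15 KPCA.C cells were too few for a level. Hypoxia genes summed there to 1237 CPM (1200 to 1274) in KPCA.B and 1215 CPM (1049 to 1401) in the 21 KPCA.A cells. Glycolysis genes summed to 7194 and 4658 CPM. Genes induced by tissue dissociation (Fos, Jun, Hspa1a and 9 others) had median log2 ratios of -1.99 and -1.67 in KPCA.B macrophage-like cells, and -0.72 and -0.64 in tumor epithelial-like cells (B and plasma cell markers there: 1169 CPM against 406 and 494), so they were lower alongside the hypoxia genes. Their part in the difference was not tested. B and plasma cell markers stood at 2701 CPM in KPCA.B macrophage-like cells against 754 and 842. In the 42 KPCA.B cells at or under the limit of 0.1% for these markers the hypoxia medians were -1.15 and -1.38.

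**Figure D3:**
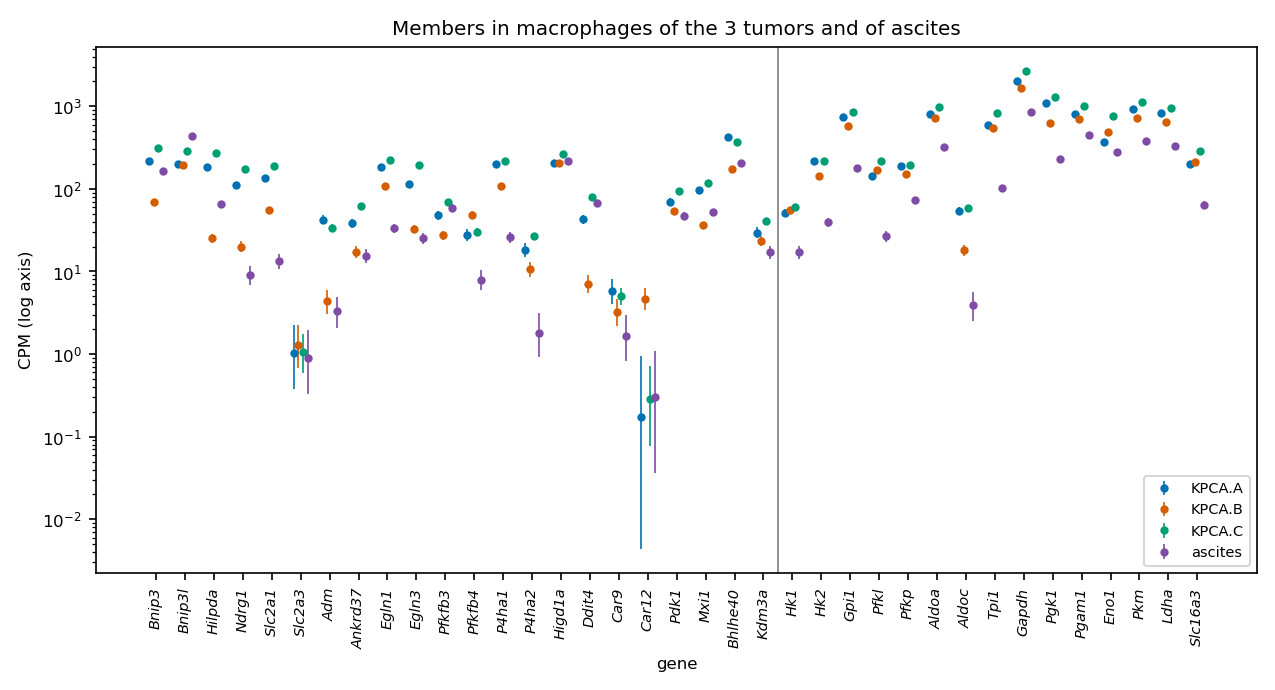
Level of each gene in macrophage-like cells in CPM (logarithmic axis) in the 4 libraries, with exact Poisson 95% intervals as bars and a grey line between the lists. KPCA.B lies lowest of the tumors for Hilpda, Ndrg1, Adm and Ddit4, and ascites lies below all tumors for most glycolysis genes.

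In fibroblast-like cells nearly all members were lower in KPCA.B. The hypoxia median was -1.93 against KPCA.A and -1.75 against KPCA.C, with 20 of 22 genes 2-fold lower in each. The glycolysis median was -1.50 and -1.22, with 13 and 12 of 14 measured genes 2-fold lower. Of all measured genes 3.92% and 4.28% were 2-fold lower. The class held 169 KPCA.A, 105 KPCA.B and 133 KPCA.C cells, at median depths of 19118, 20808 and 42657 UMIs, so KPCA.B was no shallower than KPCA.A. With cells thinned to 1000 UMIs the hypoxia medians were -1.16 and -1.28, over the 5 and 3 genes that then reached 50 UMIs. Those are smaller than the thinned medians of macrophage-like cells, -1.37 and -1.54, which cover 14 and 17 genes. As the gene sets differ, thinning does not settle the order of the classes for hypoxia genes. Thinned glycolysis medians were -1.76 and -1.75 in fibroblast-like and -0.44 and -0.74 in macrophage-like cells, the same order as without thinning. Dissociation genes were lower alongside, by medians of -0.64 against KPCA.A and -1.13 against KPCA.C (11 of 12 lower in each), and their part was not tested.

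Ndrg1 stood at 440, 32.5 and 321 CPM in KPCA.A, KPCA.B and KPCA.C, 13.5-fold (10.7 to 17.3) and 9.87-fold (7.82 to 12.6) lower in KPCA.B. Slc2a1 stood at 182, 16.3 and 151 CPM, 11.2-fold (8.02 to 16) and 9.27-fold (6.67 to 13.3) lower. Ankrd37 had a single UMI in KPCA.B (0.440 CPM) against 36.4 and 47.4 CPM, a ratio of 0.0121 (0.000303 to 0.0685) to KPCA.A and 0.00928 (0.000234 to 0.0521) to KPCA.C. Car9 had 3 UMIs (1.32 CPM) against 39.1 and 58.3 CPM, a ratio of 0.0337 (0.00686 to 0.101) and 0.0226 (0.00464 to 0.0667). For each of these 4 genes KPCA.A and KPCA.C lay far above KPCA.B. The 4 were picked for that difference, so the distance follows from the choice.

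The collagen hydroxylase genes, which fibroblasts need to fold collagen, were part of the same pattern. P4ha1, the most abundant hypoxia gene of the class, stood at 497, 155 and 470 CPM in KPCA.A, KPCA.B and KPCA.C, and P4ha2 at 222, 54.9 and 143 CPM. Among glycolysis genes Pgk1 stood at 856, 133 and 746 CPM, 6.43-fold (5.71 to 7.26) and 5.60-fold (4.98 to 6.31) lower, and Slc16a3 at 227, 29.4 and 159 CPM. Gapdh was at 2267, 744 and 2236 CPM. Bnip3l (269, 153 and 243 CPM) and Hk1, the constitutive hexokinase (56.6, 36.5 and 53.2 CPM), were lower by less than 2-fold, as was Tpi1 against KPCA.C (717, 342 and 561 CPM). Pfkfb4 was again the exception at 17.2, 22.4 and 12.9 CPM, a ratio of 1.31 (0.877 to 1.94) to KPCA.A and 1.74 (1.19 to 2.53) to KPCA.C. Between KPCA.C and KPCA.A no member differed by 2-fold, beside 0.599% of measured genes that were 2-fold lower, and the medians of -0.14 and -0.18 were 0.16 and 0.29 with a per-cell marker gate.

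KPCA.B fibroblast-like cells also held more marker RNA of other cells. Their B and plasma cell markers summed to 11356 CPM against 502 and 963 CPM, and 15 macrophage markers to 1794 CPM against 271 and 813, while the 12 fibroblast markers stood at 17398 CPM against 20278 and 23248. Without cells over the 0.1% limit, which left 30 KPCA.B cells, the hypoxia median was -2.07 against KPCA.A and -1.88 against KPCA.C. The clusters differed too: of the KPCA.B cells 69 were in cluster 10.1 and 29 in cluster 21, whereas cluster 10.0 held 86 KPCA.A and 52 KPCA.C cells but 2 of KPCA.B. Within cluster 21 the summed hypoxia level was 855 CPM in KPCA.B beside 3297 in KPCA.A and 2234 in KPCA.C, and within cluster 10.1 it was 2362 in KPCA.A and 933 in KPCA.B.

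Among lymphocytes, T cell-like cells could be compared between KPCA.B (229 cells) and KPCA.C (171 cells). All 15 measured hypoxia genes were lower in KPCA.B, 8 by 2-fold, with a median log2 ratio of -1.02 beside 0.01 over all genes, of which 2.47% were 2-fold lower. Of 14 glycolysis genes 13 were lower, 2 of them by 2-fold (Pgk1 and Slc16a3), with a median of -0.79. Slc2a1 stood at 10.6 against 58.2 CPM, 5.51-fold lower (2.93 to 11.3), and Bhlhe40, which supports cytokine production in T cells, at 145 against 459 CPM, 3.16-fold lower (2.64 to 3.8). Hilpda was at 29.1 against 101.9 CPM and Pgk1 at 252 against 597 CPM. The 46 KPCA.A T cell-like cells held Bhlhe40 at 640 CPM, Slc2a1 at 33.7 CPM and Pgk1 at 526 CPM, on the side of KPCA.C, though their acinar cell markers were higher (8611 CPM against 1881 and 1361). Dissociation genes had a median of -0.81 in the same comparison, and B and plasma cell markers stood at 2981 CPM in KPCA.B against 589 CPM, and the part of either was not tested.

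T cell-like cells held more of another glucose transporter than tumor epithelial-like cells did. Slc2a3, whose product has a high affinity for glucose, stood at 40.4, 56.4 and 90.3 CPM in KPCA.A, KPCA.B and KPCA.C. Slc2a1 made up 15.8% and 39.2% of the UMIs of Slc2a1 and Slc2a3 in KPCA.B and KPCA.C T cell-like cells, against 95.6 to 99.5% in tumor epithelial-like cells and 97.7 to 99.4% in macrophage-like cells of the tumors. Pfkp, the platelet-type phosphofructokinase, was also high in T cell-like cells, at 148, 188 and 247 CPM, and made up 73.3 to 80.5% of the UMIs of Pfkl and Pfkp. Pdk1 stood at 60.6, 56.4 and 101 CPM.

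B cell-like cells (576 in KPCA.B and 69 in KPCA.C) held little of the hypoxia list, 514 and 777 CPM in sum. The median log2 ratio was -0.45 over 11 genes, with 8 lower and 2 by 2-fold (Pfkfb3 and Kdm3a), beside 1.43% of all measured genes. This median ran from -0.67 to 0.10 under other settings, so its direction is not settled. All 12 measured glycolysis genes were lower, Pfkp by 2-fold (59.8 against 137 CPM). Highest relative to the other classes of KPCA.B were Slc2a3 at 22 CPM, Ankrd37 at 25.8 CPM and Pdk1 at 36.6 CPM, while Ndrg1 stood at 2.08 CPM.

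Endothelial-like cells differed little between KPCA.B (58 cells) and KPCA.A (91 cells). Of 7 measured hypoxia genes 6 were lower, none by 2-fold, where 2.25% of all measured genes were, and the median of -0.34 ran from -0.54 to 0.28 under other settings. The glycolysis median was -0.26 over 12 genes. Ndrg1 led the class at 398, 291 and 205 CPM in KPCA.A, KPCA.B and KPCA.C, and Hk1 stood at 96.1, 72.3 and 144 CPM. Egln3 was low at 5.66 and 2.06 CPM in KPCA.A and KPCA.B.

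Other classes were too small for a comparison, and their levels are given as they stand. Neutrophil-like cells (255 in KPCA.A, 41 in KPCA.B) had the highest summed hypoxia levels of any class in both libraries, 4706 (4475 to 4945) and 2756 CPM (2422 to 3123). Their shallow median depth was 1262 and 2003 UMIs. Egln3 stood at 659 and 493 CPM there, and made up 85.8% of the UMIs of Egln1 and Egln3 in KPCA.A, while Hilpda was at 626 and 101 CPM and Hk2 at 405 and 258 CPM. P4ha2 was nearly absent at 6.04 CPM in KPCA.A. Acinar cell markers summed to 14791 CPM in the KPCA.A neutrophil-like cells and 3305 CPM in KPCA.B, beside neutrophil markers of 26113 and 91412 CPM, and the part of such RNA in these levels was not tested.

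Duct type epithelial-like cells of KPCA.A (80 cells) had the highest Aldoc level of any class there, 100 CPM (79.1 to 126), with Bnip3l at 201 CPM and P4ha1 at 10.6 CPM. NK cell-like cells of KPCA.B (73 cells) held Bhlhe40 at 281 CPM, Pfkp at 155 CPM and Higd1a at 137 CPM, and no UMI of Hk2. Dendritic cell-like cells had Bhlhe40 as their leading hypoxia gene, at 942, 237 and 793 CPM in KPCA.A, KPCA.B and KPCA.C (37, 34 and 54 cells), and held Pfkp at 493, 479 and 549 CPM. The first gene was thus low in KPCA.B and the second level. Plasma cell-like cells of KPCA.B held Pfkp at 92.2 CPM, Hk2 at 47.2 CPM and Bhlhe40 at 2.69 CPM. Acinar-like cells of KPCA.A, enzyme-secreting cells of the pancreas, had no UMI of Adm.

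Pairs of related genes gave a view that does not depend on scaling between libraries. The share of Bnip3 in the UMIs of Bnip3 and Bnip3l was 52.2%, 26.5% and 52.4% in the macrophage-like cells from KPCA.A, KPCA.B and KPCA.C, and 46.5%, 21.4% and 47.3% in fibroblast-like cells. Together with the tumor epithelial-like shares, KPCA.B was the lowest in each of the 3 classes by more than 20 percentage points. The share of Egln3 in Egln1 and Egln3 did not follow this order: it was 59.4%, 61.4% and 43.7% in tumor epithelial-like cells, 38.5%, 23.3% and 46.7% in macrophage-like cells and 59.8%, 59.5% and 57.7% in fibroblast-like cells. Pfkfb4 made up 64.0% of the UMIs of Pfkfb3 and Pfkfb4 in KPCA.B macrophage-like cells, against 36.7% and 30.7%, and 62.2% in KPCA.B fibroblast-like cells, against 31.3% and 21.3%.

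Lactate dehydrogenase subunits behaved like the aldolases in tumor epithelial-like cells. Ldha, the subunit that favors lactate, stood at 955, 497 and 1045 CPM in KPCA.A, KPCA.B and KPCA.C, while Ldhb, which is no member and favors pyruvate, stood at 25.6, 76.9 and 5.91 CPM. Ldhb made up 2.60%, 13.4% and 0.563% of their UMIs in tumor epithelial-like cells and 3.68%, 21.2% and 6.004% in fibroblast-like cells. In macrophage-like cells it was 2.02%, 1.26% and 0.755%, with no rise in KPCA.B. Hk2 made up 74.2%, 81.3% and 55.2% of the UMIs of Hk1 and Hk2 in tumor epithelial-like cells.

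Single cells were compared after each was thinned to 1000 UMIs. At least 5 hypoxia UMIs were found in 25% of the KPCA.A tumor epithelial-like cells (22 to 28.1%, exact Clopper-Pearson) and 24.4% of the KPCA.C ones (21.8 to 27.2%), but in 5.45% of those in KPCA.B (3.26 to 8.48%). In macrophage-like cells the shares were 18.4%, 2.08% and 23.5%, and 2.66% in ascites. Fibroblast-like cells had 28.0%, 3.09% and 30.5%. KPCA.B thus had few cells rich in hypoxia UMIs in each class. Cells with none made up 35.8% of KPCA.B tumor epithelial-like cells against 15.1% and 16.3%, 40.0% of macrophage-like cells against 18.6% and 12.3%, and 43.3% of fibroblast-like cells against 16.5% and 11.5%. Plasma cell-like cells of KPCA.B, taken as a class with little of the program, had none in 72%, though B and plasma cell markers took 397645 CPM there. Thinning left out 105, 83 and 195 tumor epithelial-like cells, 46, 19, 51 and 692 macrophage-like cells, and 5, 8 and 2 fibroblast-like cells. Unthinned, hypoxia genes took a median of 0.207%, 0.110% and 0.234% of a tumor epithelial-like cell's UMIs, 0.182%, 0.0976% and 0.255% of a macrophage-like cell's (0.132% in ascites) and 0.274%, 0.0803% and 0.279% of a fibroblast-like cell's.

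**Figure D4:**
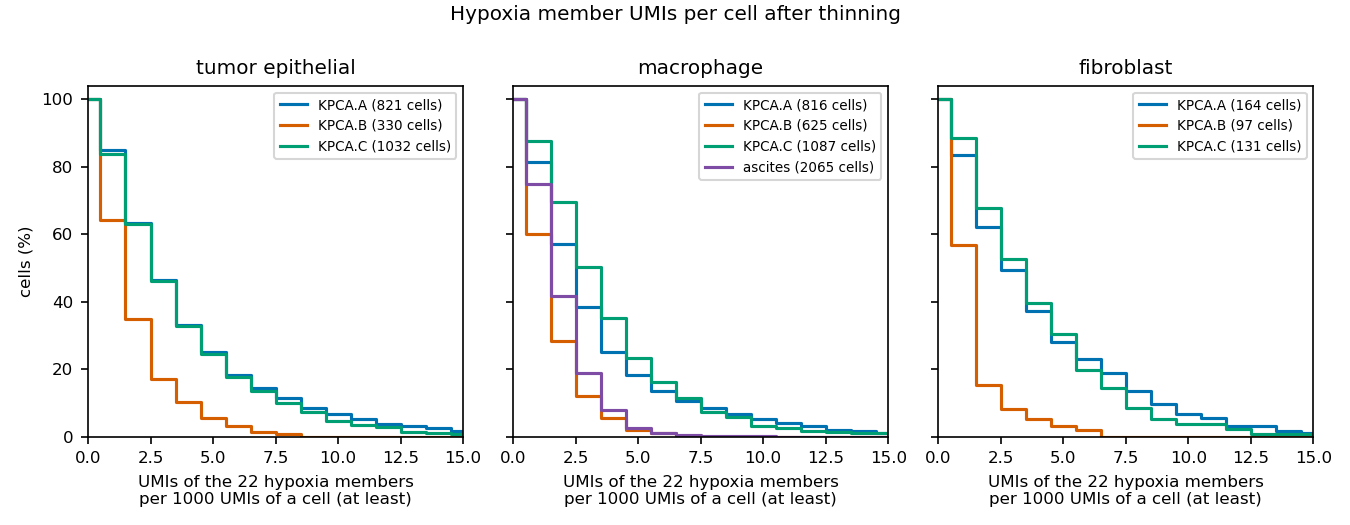
Share of cells (percent) with at least a given number of hypoxia UMIs after thinning to 1000 UMIs per cell, for fibroblast-like, macrophage-like and tumor epithelial-like cells in each library. The KPCA.B curves fall fastest, to 3.09%, 2.08% and 5.45% of cells at 5 UMIs, and the ascites macrophage-like curve falls to 2.66%.

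Both lists varied together from cell to cell in the tumor epithelial-like, fibroblast-like and macrophage-like cells of the tumors, most closely in KPCA.A and KPCA.C. Among cells with at least 5000 UMIs, Spearman's rho between the hypoxia and glycolysis shares was 0.83 in KPCA.A tumor epithelial-like cells (736 cells), 0.42 in KPCA.B (277) and 0.81 in KPCA.C (858). In fibroblast-like cells it was 0.85 (146), 0.30 (91) and 0.90 (128), and in macrophage-like cells 0.70 (485), 0.62 (531), 0.73 (905) and 0.16 in ascites (243). These values are descriptions across cells of 1 library each, and share each cell's total as the denominator. Between hypoxia genes and cycling genes rho was -0.38, -0.20 and -0.34 in tumor epithelial-like cells.

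Clusters within a class spread more widely than the libraries' means. In tumor epithelial-like cells of KPCA.C, cluster 8.4 (60 cells) reached 7445 CPM of hypoxia genes and 18976 CPM of glycolysis genes, whereas cluster 5.4 (82 cells) held 1033 CPM of hypoxia genes. Cluster 14 (281 KPCA.C cells), the most cycling, held 2187 CPM. In cluster 3 KPCA.B held 1548 CPM against 3186 in KPCA.A and 3165 in KPCA.C, and in cluster 11 it held 1262 against 2920 in KPCA.A. Cluster 5.2, whose KPCA.B cells had a median of 737 UMIs, was an exception: 67 KPCA.B cells held 2438 CPM (2043 to 2888) and 20 KPCA.C cells 2683 CPM (1889 to 3699), with overlapping intervals. The hypoxia medians of KPCA.B were -0.98 and -1.04 in cluster 3 and -1.23 in cluster 11.

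The level of Aldoc followed the cluster as well as the line. In cluster 11 it was at 24.6 CPM in KPCA.A and 90.1 CPM in KPCA.B, while in cluster 3 it was at 9.55, 13.6 and 10.8 CPM in KPCA.A, KPCA.B and KPCA.C. Cluster 11 gave 188 of the 413 KPCA.B tumor epithelial-like cells. Hk2 stood at 271, 245 and 209 CPM in cluster 3 and at 80.5 CPM in cluster 14, the largest of the tumor epithelial-like clusters in KPCA.C. Adm was at 174 CPM in KPCA.A and 1.64 CPM in KPCA.B within cluster 11.

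**Figure D5:**
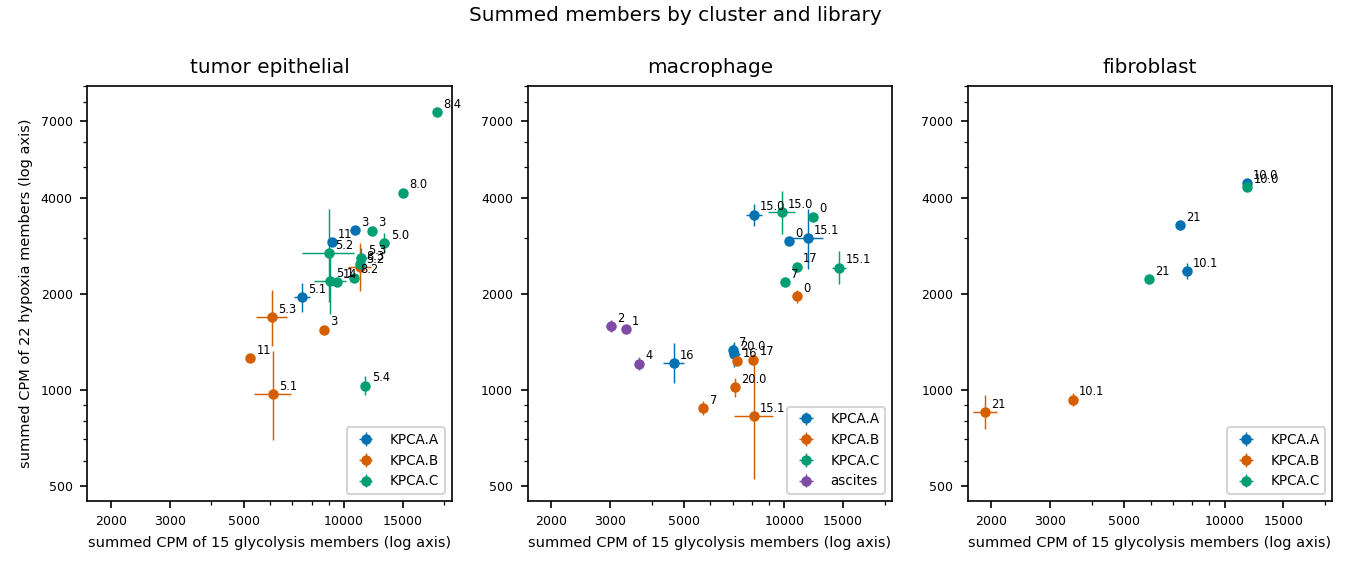
Summed hypoxia level against summed glycolysis level (CPM, both axes logarithmic) for each cluster and library of the fibroblast-like, macrophage-like and tumor epithelial-like classes. Most KPCA.B points lie toward the lower left, and cluster 8.4 of KPCA.C lies at the upper right with 7445 and 18976 CPM.

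Ascites macrophage-like cells (2757 cells) had low glycolysis genes. Ascites differed from the tumors in tissue, age, depth and Cell Ranger version, which cannot be told apart. Barcodes beginning with AAACCT were found in ascites alone (5) and those beginning with AAACCC in the tumors alone (3 to 9), so the barcode sets, and perhaps the chemistry, differed against the labels. The class shared no cluster between them: ascites cells lay in clusters 1, 2 and 4 (1036, 982 and 739 cells), which held no cell of a tumor library. In ascites the macrophage markers summed to 5571 CPM against 17814 to 20157 in the tumors. All genes measured were shifted too, with medians of -0.58, -0.59 and -0.52 against KPCA.A, KPCA.B and KPCA.C, and differences are best read against that shift. The glycolysis median was -1.34, -1.39 and -1.63, with 15 of 15 genes lower in each comparison and 13, 9 and 15 of them 2-fold lower. Of all genes, 29.8%, 30.4% and 24.6% were 2-fold lower. With median-of-ratios scaling, which takes off most of the shift, the glycolysis medians were -0.69, -0.64 and -0.97. Dissociation genes had medians of -2.84, -0.94 and -2.65, and their part was not tested. Ascites lay below all 3 tumors for 26 members, by 2-fold for 14. This count covers members with at least 50 UMIs in every comparison, at most 19 hypoxia and 15 glycolysis genes. The share of all genes below all 3 tumors was not computed, so these counts do not set the members apart from other genes.

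Slc2a1 stood at 13.4 CPM in ascites against 137, 55.1 and 188 CPM in KPCA.A, KPCA.B and KPCA.C, 10.2, 4.11 and 14.0-fold lower. The triose isomerase Tpi1 stood at 103 CPM against 593, 548 and 821 CPM, 5.76, 5.32 and 7.98-fold lower. Pfkl was at 26.8 CPM against 143, 170 and 219 CPM, Hk2 at 39.2 CPM against 219, 144 and 216 CPM, and P4ha1 at 26.1 CPM against 200, 109 and 218 CPM. Slc2a1, for entry of glucose, and Tpi1, Pfkl and Hk2 of the path were thus low at the RNA level beyond the shift of all genes. These genes and P4ha1 were picked for the largest distance below all tumors, so this distance follows from the choice. Pfkp, at 74.1 CPM against 187, 151 and 196 CPM, was lower by less and made up 73.4% of the UMIs of Pfkl and Pfkp, against 46.9 to 56.7% in the tumors.

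Hypoxia genes of ascites macrophage-like cells split. Their median was -1.09 against KPCA.A, -0.17 against KPCA.B and -1.28 against KPCA.C, and the middle one was 0.50 with median-of-ratios scaling, so its direction depends on the scaling. Ndrg1 (8.94 CPM) was lower than in every tumor. Adm (3.28 CPM) was lower than in KPCA.A and KPCA.C and close to its low level in KPCA.B. Bnip3l stood at 442 CPM against 199, 193 and 284 CPM and was the single member above all tumors, 2.23, 2.29 and 1.56-fold. Ddit4 stood at 66.8 CPM, 9.49-fold above KPCA.B (7.30 to 12.5) and between KPCA.A (42.8 CPM) and KPCA.C (79.0 CPM). Hilpda at 65.9 CPM and Bnip3 at 163 CPM were likewise 2.62 and 2.35-fold above KPCA.B and below the others. In the log2 ratio of CPM plus 5, 4 hypoxia genes were 2-fold higher against KPCA.B and 1 against KPCA.A, beside 6.07% and 7.12% of all genes. Ascites was thus nearest to KPCA.B for Ndrg1 and Adm, and lay between KPCA.B and KPCA.A for Bnip3 and Hilpda.

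Dendritic cell-like cells of ascites (129 cells) differed from those of KPCA.C (54 cells) in the same direction. Of 13 measured hypoxia genes 11 were lower, 8 by 2-fold, and all 14 glycolysis genes were lower, 10 by 2-fold, with medians of -1.60 and -1.62. The hypoxia median was -0.47, over 6 genes, with a mitochondrial limit of 25%, and the glycolysis median -1.06 with median-of-ratios scaling. The class lay in different clusters: all 129 ascites cells were in cluster 18, against 17 of the KPCA.C cells, of which 26 were in cluster 20.1 and 11 in cluster 20.2. Dissociation genes had a median of -2.28 (10 of 10 lower, 8 by 2-fold), whose part was not tested. Over all genes the median was -0.67 and 37.5% were 2-fold lower. Ddit4 was the member 2-fold higher, at 158 CPM. Pfkp stood at 231 CPM, Higd1a at 272 CPM and Egln3 had no UMI.

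The genes of oxygen sensing, as a list, differed less between tumors than the hypoxia members. Over the 10 measured of 12 genes of sensing and HIF, the median log2 ratio of KPCA.B was 0.24 and 0.23 in tumor epithelial-like cells against KPCA.A and KPCA.C, -0.06 and -0.22 in macrophage-like cells and -0.02 and -0.25 in fibroblast-like cells. Hif1a, the alpha subunit found in most cells, stood at 485, 271 and 349 CPM in tumor epithelial-like cells, 713, 399 and 744 CPM in their macrophage-like counterparts (278 in ascites) and 240, 97.6 and 276 CPM in the fibroblast-like class. It was lowest in KPCA.B among the tumors in all 3 classes. Epas1, the subunit known from vessels, was highest in endothelial-like cells at 699, 588 and 459 CPM. Arnt stood at 40.4, 48.9 and 34.6 CPM and Vhl at 22.9, 18.3 and 19.1 CPM in tumor epithelial-like cells.

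Of 29 further known HIF targets that are no members, most of those measured were lower in KPCA.B macrophage-like and fibroblast-like cells as well. The list as a whole is given for these classes alone, and its direction in tumor epithelial-like cells is not reported here. In macrophage-like cells 19 of 23 were lower than in KPCA.A and 25 of 26 than in KPCA.C, 6 and 9 of them by 2-fold. Of all measured genes 3.09% and 3.18% were 2-fold lower there. In fibroblast-like cells 26 of 28 and 28 of 28 were lower, 18 and 16 by 2-fold, beside 3.92% and 4.28% of all measured genes. Vegfa, the main growth factor of vessels, stood at 350, 86.5 and 298 CPM in tumor epithelial-like cells, 229, 15.3 and 268 CPM in the macrophage-like class and 478, 48.8 and 410 CPM in the fibroblast-like class. In ascites macrophage-like cells it was at 3.73 CPM. Plod2, a collagen lysyl hydroxylase, was at 134, 29.3 and 172 CPM in tumor epithelial-like cells, and the oxidative folding gene Ero1l at 305, 101 and 393 CPM in macrophage-like cells. Each of these 3 genes was lowest in KPCA.B among the tumors. They were picked for a large difference of KPCA.B from both other tumors, so this distance follows from the choice.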

How the data were processed

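Whole-number UMI counts per gene and barcode, as deposited by the authors, were used for 3 omental tumor libraries and 1 ascites library. The submitters' processing notes name Cell Ranger 3.1.0 and mm10, whereas version 4.0.0 (tumors) and version 3.0.2 (ascites) stand in the file headers. The other values deposited are identifiers, symbols and barcodes in tables of their own. How reads shared with near-identical copies of Gapdh, Ldha, Pgam1, Tpi1, Aldoa and Eno1 were counted is not given in the sources used here, so levels of these genes are uncertain.

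A barcode needed 300 genes, 500 UMIs and no more than 15% mitochondrial UMIs, which 11253 passed, which held 45406879 UMIs (KPCA.A), 90031155 UMIs (KPCA.C), 37988642 UMIs (KPCA.B) and 7195290 UMIs (ascites). Doublets were not removed. Clustering used counts per 10000 on a log scale, and 2000 variable genes, 30 components, 15 neighbors and Leiden resolution 1, leaving out 102 genes of the members and pathway lists. Of 49 clusters and subclusters 4 stayed unnamed (309 cells), and 14 classes were named from marker lists with at least 3 markers. A tumor cluster also needed Krt8 and Krt18 at 500 CPM and Cdkn2a at 200 CPM. Tumor clusters held Cdkn2a at 264.1 CPM or more and all other named clusters at 52.74 CPM or less, a gap that the naming partly sets. The unnamed cluster 8.1 (147 cells) held Cdkn2a at 639.6 CPM.

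Levels are the summed UMIs of a class in a library, as CPM over the shared genes. Medians are of log2 ratios with 5 CPM added, over genes with at least 50 UMIs in the libraries compared, in classes with at least 50 cells, and levels needed 20 cells. Levels have exact Poisson intervals, ratios exact conditional ones and shares exact Clopper-Pearson ones. No p-value was computed. The intervals of ratios and the calls of 2-fold differences were tested on simulated summed counts, and the other steps were not. Named genes are the members whose KPCA.B level lies farthest from both other tumors (8 for tumor epithelial-like, 8 for macrophage-like and 4 for fibroblast-like cells), those against their list by 2-fold, the 5 with ascites farthest from all tumors in each direction, and the 3 highest relative to other classes in each other class. The lowest in each other class, and all remaining members, were added after their values were seen. A gene of the further pathway lists that the rule names is not reported here. The members and lists were chosen with earlier results of these data known. Alternatives were other cell filters, resolutions 0.5 and 2, a per-cell marker gate, other scalings, 1 and 20 CPM added, no UMI minimum and thinned cells. Software was python 3.11.15, scanpy 1.11.5, scipy 1.17.1, numpy 2.4.6, pandas 2.3.3, anndata 0.12.19, scikit-learn 1.9.0, leidenalg 0.10.2, igraph 0.11.9 and matplotlib 3.10.9. Annotation is GENCODE vM21 on GRCm38, and promoters are RefSeq's on GRCm38.p6.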

Additional observations from a re-analysis of the deposited data

Results flagged for a closer look

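Aldoc differed between the lines in opposite directions in different classes. In tumor epithelial-like cells its log2 ratio in KPCA.B was 1.83 against KPCA.A and 1.74 against KPCA.C, while in macrophage-like cells it was -1.34 and -1.44. Both comparisons in one class went up and both in the other went down, and the difference between classes was not tested. Within tumor epithelial-like cluster 11 the KPCA.B level of Aldoc was 90.1 CPM, beside 24.6 CPM in KPCA.A.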

How the results depend on the processing

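No paired analysis was possible because each group has 1 library, and no replicate could be left out. Median log2 ratios of the lists were recomputed under 13 settings, the last 2 of them (without cells over the B and plasma cell marker limit, and cells with at least 5000 UMIs) chosen after seeing the data. The per-cell marker gate was not run for dendritic cell-like cells, which had too few cells. Below, the comparisons are named by their libraries, and a median that kept within its spread is left out. At Leiden resolution 0.5 and without the UMI minimum no median left its spread, though 1 changed sign at the former. The causes of the shifts were not tested. With a mitochondrial limit of 25%, the medians of dendritic cell-like cells were -0.47 for hypoxia (ascites against KPCA.C). Those of macrophage-like cells were -0.21 for glycolysis (KPCA.B against KPCA.A). In tumor epithelial-like cells they were -0.76 for glycolysis (KPCA.B against KPCA.C) and -0.067 for glycolysis (KPCA.C against KPCA.A). With the stricter cell filter (500 genes, 1000 UMIs, 10% mitochondrial), the medians of fibroblast-like cells were -1.31 for glycolysis (KPCA.B against KPCA.A) and -0.037 for glycolysis (KPCA.C against KPCA.A). For tumor epithelial-like cells they were -0.22 for hypoxia and -0.014 for glycolysis (KPCA.C against KPCA.A). At Leiden resolution 2, the medians of fibroblast-like cells were -1.51 for glycolysis (KPCA.B against KPCA.C) and 0.0695 for hypoxia and 0.0018 for glycolysis (KPCA.C against KPCA.A). Those of tumor epithelial-like cells were -0.012 for glycolysis (KPCA.C against KPCA.A). With the per-cell marker gate, the medians of fibroblast-like cells were -1.04 for glycolysis (KPCA.B against KPCA.A), -1.48 for glycolysis (KPCA.B against KPCA.C) and 0.16 for hypoxia and 0.29 for glycolysis (KPCA.C against KPCA.A). In tumor epithelial-like cells they were -0.65 for glycolysis (KPCA.B against KPCA.A), -1.27 for hypoxia and -0.84 for glycolysis (KPCA.B against KPCA.C) and -0.0076 for hypoxia (KPCA.C against KPCA.A). With median-of-ratios scaling, the medians of dendritic cell-like cells were -1.06 for glycolysis (ascites against KPCA.C). Those of macrophage-like cells were -0.63 for glycolysis (KPCA.B against KPCA.C), -0.45 for hypoxia and -0.69 for glycolysis (ascites against KPCA.A), 0.50 for hypoxia and -0.64 for glycolysis (ascites against KPCA.B) and -0.71 for hypoxia and -0.97 for glycolysis (ascites against KPCA.C). For tumor epithelial-like cells they were -0.86 for glycolysis (KPCA.B against KPCA.A), -1.28 for hypoxia and -1.01 for glycolysis (KPCA.B against KPCA.C) and 0.0022 for hypoxia and 0.12 for glycolysis (KPCA.C against KPCA.A). As a mean over cells, the medians of macrophage-like cells were -1.20 for hypoxia and -0.39 for glycolysis (KPCA.B against KPCA.A), -1.39 for hypoxia and -0.68 for glycolysis (KPCA.B against KPCA.C), 0.22 for hypoxia (KPCA.C against KPCA.A), -1.33 for hypoxia and -1.62 for glycolysis (ascites against KPCA.A) and -1.08 for glycolysis (ascites against KPCA.B). Those of tumor epithelial-like cells were -0.57 for glycolysis (KPCA.B against KPCA.A), -0.94 for hypoxia and -0.71 for glycolysis (KPCA.B against KPCA.C) and 0.051 for glycolysis (KPCA.C against KPCA.A). With 1 CPM added, the medians of macrophage-like cells were -1.52 for glycolysis (ascites against KPCA.A) and -1.52 for hypoxia and -1.77 for glycolysis (ascites against KPCA.C). In tumor epithelial-like cells they were -1.31 for hypoxia (KPCA.B against KPCA.C). With 20 CPM added, the medians of macrophage-like cells were -0.77 for hypoxia (ascites against KPCA.A), -1.04 for glycolysis (ascites against KPCA.B) and -0.89 for hypoxia (ascites against KPCA.C). For tumor epithelial-like cells they were -0.80 for hypoxia (KPCA.B against KPCA.A) and -0.82 for hypoxia (KPCA.B against KPCA.C). With cells thinned to 1000 UMIs, the medians of fibroblast-like cells were -1.16 for hypoxia and -1.76 for glycolysis (KPCA.B against KPCA.A) and -1.28 for hypoxia and -1.75 for glycolysis (KPCA.B against KPCA.C). Those of macrophage-like cells were -1.37 for hypoxia and -0.44 for glycolysis (KPCA.B against KPCA.A), -1.54 for hypoxia and -0.74 for glycolysis (KPCA.B against KPCA.C), 0.25 for hypoxia (KPCA.C against KPCA.A) and 0.34 for hypoxia and -1.09 for glycolysis (ascites against KPCA.B). Those of tumor epithelial-like cells were -1.14 for hypoxia (KPCA.B against KPCA.A), -0.89 for glycolysis (KPCA.B against KPCA.C) and -0.056 for glycolysis (KPCA.C against KPCA.A). Without cells over the B and plasma cell marker limit, the medians of fibroblast-like cells were -1.26 for glycolysis (KPCA.B against KPCA.A). Those of macrophage-like cells were -1.15 for hypoxia (KPCA.B against KPCA.A), -1.38 for hypoxia (KPCA.B against KPCA.C) and 0.19 for hypoxia and -1.26 for glycolysis (ascites against KPCA.B). With cells of at least 5000 UMIs alone, the medians of macrophage-like cells were -1.56 for glycolysis (ascites against KPCA.A) and -1.85 for glycolysis (ascites against KPCA.C).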
